A study of Homo sapiens with 16 samples.

Results

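The genes described here are 10 transcription factor genes, the MYC family members MYC, MYCN and MYCL, their dimer partner MAX, and the Krüppel-like factors KLF2, KLF4, KLF5, KLF6, KLF7 and KLF12. They were taken by name from a list made with earlier results of these data known, and all 10 were found among the 57736 genes of the count table. The established line H9, derived from a human embryo and pluripotent, was sampled undifferentiated (D0) and after 12, 30 and 70 days of neural differentiation (D12, D30 and D70), which was started with inhibitors of both SMAD pathways. Throughout, the cells received either 40 µM Thiamet-G (TMG), which blocks the enzyme that removes O-GlcNAc from proteins, or the solvent DMSO as control. Each of the 8 groups of stage and arm held 2 biological replicates of this 1 line, so no group speaks for other lines, and undifferentiated cells were treated too. For 8 of the 16 libraries a separate treatment tag names the other arm, whereas titles, descriptions and column names go together and were used. The libraries were made from rRNA-depleted total RNA and held 10334908 to 19836878 counts.

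MYC, MYCN and MYCL are basic helix-loop-helix leucine zipper proteins that bind E-box DNA as dimers with MAX and drive genes of ribosome production, nucleotide synthesis and the cell cycle. MAX also pairs with repressors of the MXD, MXI1, MNT and MGA kind, which compete with MYC for it. Krüppel-like factors share a zinc finger domain that binds GC-rich boxes. KLF2, KLF4 and KLF5 are known for their part in pluripotency, KLF4 and MYC are reprogramming factors, KLF2 marks endothelium under flow, KLF5 is an epithelial factor, KLF6 and KLF4 are induced quickly by growth factors and stress, KLF7 is a neuronal factor and KLF12 a repressor.

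Promoter sequences are shown for the gene with the clearest change between stages, MYCN, and for KLF2, KLF4 and KLF6, which were high in the same late libraries. RefSeq's promoter table (GRCh38.p14) held entries for 9 of the 10 genes, all but MYC. Each sequence is the 250 bases before the annotated start, read 5′ to 3′ on the gene's strand. The positions are chr2:15940300-15940549 (plus strand) for MYCN, chr19:16324576-16324825 (plus) for KLF2, chr9:107489770-107490019 (minus) for KLF4 and chr10:3785210-3785459 (minus) for KLF6. Capitals mark matches on either strand to the E-box CACGTG, the GC box GGGCGG, the MEF2-type TAAATTTA and the E2F-type TTTGGCGC, motifs that were chosen after these promoters had been read.
MYCN: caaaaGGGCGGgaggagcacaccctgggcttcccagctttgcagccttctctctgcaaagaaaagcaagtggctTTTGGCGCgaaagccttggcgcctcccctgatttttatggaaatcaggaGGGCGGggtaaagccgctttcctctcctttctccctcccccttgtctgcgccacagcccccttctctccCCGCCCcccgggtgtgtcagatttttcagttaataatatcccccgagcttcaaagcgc
KLF2: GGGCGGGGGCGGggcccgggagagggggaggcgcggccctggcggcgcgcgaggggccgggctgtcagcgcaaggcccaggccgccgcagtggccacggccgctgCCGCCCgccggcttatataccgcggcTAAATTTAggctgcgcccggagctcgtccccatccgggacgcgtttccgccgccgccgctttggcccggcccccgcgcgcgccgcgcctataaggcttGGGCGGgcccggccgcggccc
KLF4: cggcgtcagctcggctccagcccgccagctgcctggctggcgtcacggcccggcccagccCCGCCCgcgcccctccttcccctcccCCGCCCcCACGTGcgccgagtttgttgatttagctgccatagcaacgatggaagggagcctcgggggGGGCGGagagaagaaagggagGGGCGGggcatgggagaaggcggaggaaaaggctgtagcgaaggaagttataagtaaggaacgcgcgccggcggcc
KLF6: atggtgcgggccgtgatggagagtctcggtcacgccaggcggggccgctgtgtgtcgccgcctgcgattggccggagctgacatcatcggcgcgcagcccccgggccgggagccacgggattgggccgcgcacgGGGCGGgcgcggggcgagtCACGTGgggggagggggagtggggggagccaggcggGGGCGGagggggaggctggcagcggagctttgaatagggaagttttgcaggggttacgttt

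The E-box stood once each in the KLF4 and KLF6 sequences and in neither of the others, and 6.31% of all 34788 different promoters of this length held it. GC boxes numbered 3 in MYCN, 4 in KLF2, 4 in KLF4 and 2 in KLF6, where 42.6% of all promoters held at least 1. The MEF2-type motif was found in KLF2 (0.543% of all promoters) and the E2F-type motif in MYCN (0.549%). These matches describe the letters only, since binding was not measured.

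Levels are given as CPM, read counts brought to 1 common library size by trimmed-mean scaling, and genes are compared with each other only per kilobase of exon. In control cells on D0, MYCN was the most abundant of the 10 with 39.8 CPM per kilobase, followed by MYCL with 9.15 and MYC with 8.39. KLF4 had 6.76, KLF6 6.12, MAX 5.54, KLF12 3.64, KLF7 3.52, KLF5 1.64 and KLF2 0.182. The place of KLF4 rests on the second control, with 42.8 CPM against 6.74 in the first. By D70 the order of the control means differed. KLF5 stood at 12.1, KLF6 at 8.08, KLF12 at 8.05, MYCN at 7.50 and MAX at 6.25 CPM per kilobase. Below them were KLF7 with 5.14, KLF4 with 3.88, MYCL with 2.72, MYC with 2.16 and KLF2 with 2.14. The D70 controls had 23.8 and 65.4 CPM of KLF5 and 33.8 and 65.3 of KLF6, so their places rest on the second library. The summed level of 8 stem cell markers was 4056 to 4751 CPM on D0 and 9.58 to 19.5 on D70, and that of 8 neuron markers was 238 to 251 on D0 and 144 to 942 on D70. The second TMG library of D70 lay below the D0 libraries in neuron markers (144 CPM) and was the lowest of its stage in neural progenitor markers (112 CPM, against 565 to 851 in the other D70 libraries). In these bulk samples, fewer cells of a type and less RNA per cell cannot be told apart.

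**Figure D1:**
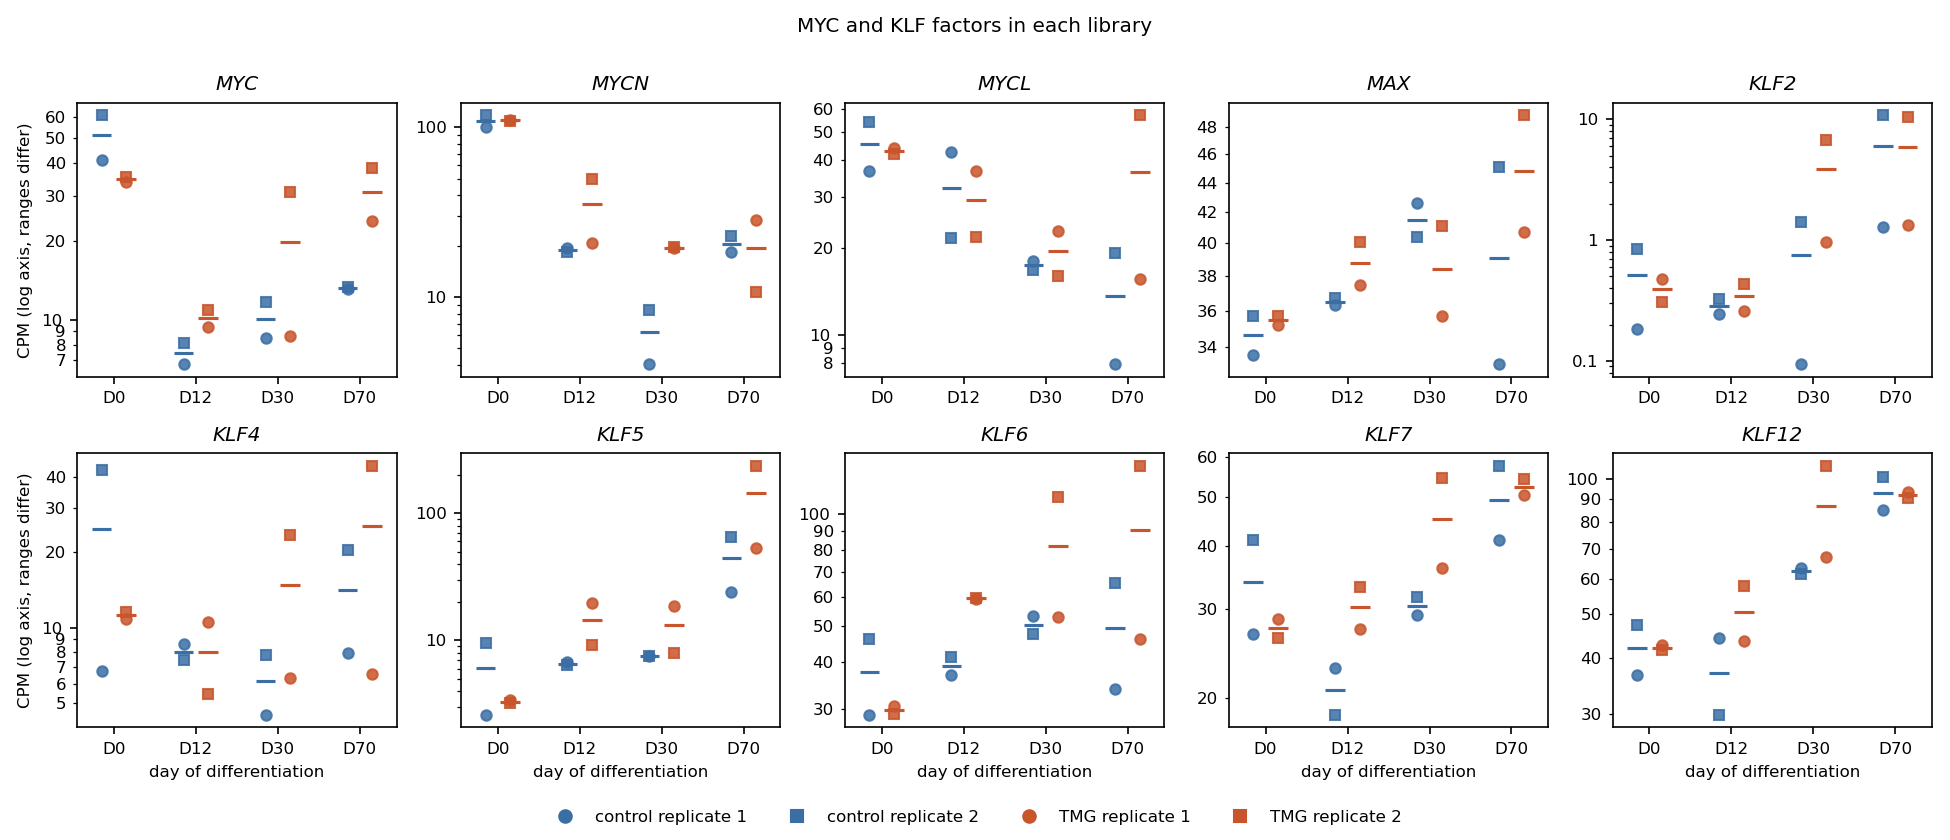
Level of each of the 10 genes in every library, in CPM on log axes whose ranges differ, by stage and arm, with circles for replicate 1, squares for replicate 2 and short lines for the mean of 2. MYCN was highest on D0 in both arms and MYC on D0 in control cells, while with TMG the highest MYC library was of D70 (38.3 CPM). MAX stayed between 33.1 and 48.9 CPM, and the second replicates of D70 were the high ones for KLF2, KLF4, KLF5 and KLF6.

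To follow the MYC family through differentiation, stages were compared within each arm by edgeR at a false discovery rate of 5%, with p-values adjusted over all 24249 genes tested. All 10 members passed the filter on low counts, KLF2 through its late libraries. MYC and MYCN fell in control cells from D0 to D12, MYCN fell further than any other member by D30, and MYCL was lower on D70. From D0 to D12 in control cells, 2 of the 10 members were called, both lower, where 16.7% of all genes were called (9.71% lower, 6.97% higher). From D0 to D30 it was again 2, both lower, against 30.6% of all genes (16.7% lower, 14.0% higher). From D0 to D70, 5 were called, 3 lower and 2 higher, against 29.8% of all genes (14.7% lower, 15.0% higher). These comparisons share the D0 libraries.

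MYC (ENSG00000136997) had 41.3 and 61.2 CPM in the control libraries of D0, 6.73 and 8.10 on D12, 8.46 and 11.7 at D30, then 13.1 and 13.4 on D70. Both D0 libraries lay above the 6 later ones. The fall was 6.91-fold by D12 (log2 fold change -2.79, standard error 0.49, adjusted p = 0.0052), 5.07-fold by D30 (-2.34, 0.49, adjusted p = 0.00522) and 3.88-fold by D70 (-1.96, 0.48, adjusted p = 0.0119). Its order was D0, D70, D30, D12, and the neighbours D70 and D30 (log2 difference 0.39, adjusted p = 0.688) and D30 and D12 (0.45, adjusted p = 0.639) did not differ beyond their spread. The D12 call was lost without the first D12 control (adjusted p = 0.0568) and the D30 call without the first D30 control (0.0535). The D70 call was lost without the second D0 control (0.0706) or without either D70 control (0.0617 and 0.051).

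In TMG-treated cells MYC had 34.0 and 35.3 CPM on D0, 9.40 and 10.9 on D12, 8.65 and 31.0 at D30, then 23.9 and 38.3 on D70. It was lower on D12 than on D0 by 3.42-fold (log2 fold change -1.77, standard error 0.48, adjusted p = 0.0292), a call that was lost whichever of the 4 libraries was left out, with adjusted p-values up to 0.166. On D70 the 2 TMG libraries stood on both sides of those of D0, and the log2 difference from D0 was -0.15 (0.46, adjusted p = 0.83). From D12 to D70 the difference was 1.62 (0.48, adjusted p = 0.0754 by edgeR, 0.012 by DESeq2).

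MYCN (ENSG00000134323, chr2:16080672-16087129 on the plus strand of GRCh37), the family member typical of embryonic and neural progenitor cells, had 101 and 118 CPM in the D0 controls. It had 19.4 and 18.6 CPM on D12, 4.04 and 8.38 at D30, then 18.5 and 22.9 on D70. D0 lay far above, and D30 below, the libraries of the other stages. The fall from D0 was 5.77-fold on D12 (log2 fold change -2.53, standard error 0.50, adjusted p = 0.00829), 17.4-fold on D30 (-4.12, 0.54, adjusted p = 0.000495) and 5.31-fold on D70 (-2.41, 0.49, adjusted p = 0.00519). The D30 and D70 calls held with each library left out in turn, and the D12 call was lost without either D12 control (0.0665 and 0.0633). The dip on D30 did not pass by edgeR, against D12 (-1.59, adjusted p = 0.102) or against D70 (adjusted p = 0.121), and passed by DESeq2 (0.02 and 0.0152).

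In the TMG arm MYCN had 111 and 109.8 CPM on D0, 20.9 and 49.5 on D12, 19.4 and 19.9 at D30, then 28.4 and 10.7 on D70. Every later library lay below both of D0. The falls were 3.14-fold on D12 (log2 fold change -1.65, standard error 0.48, adjusted p = 0.0399), 5.62-fold on D30 (-2.49, 0.50, adjusted p = 0.00497) and 5.63-fold on D70 (-2.49, 0.50, adjusted p = 0.00451). The last 2 held with each library left out, and the D12 call was lost without either D0 library or the first of D12, where adjusted p reached 0.234, and without the low-count filter (0.0857). An antisense gene, MYCNOS, shares 98 exon bases with MYCN, and the library kit does not mark strand, so their reads cannot be told apart there. MYCNOS had 278 counts in all libraries together and MYCN 10676.

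MYCL (ENSG00000116990, chr1:40361100-40367928, minus strand of GRCh37) had 36.8 and 54.1 CPM in the D0 controls, 42.7 and 21.5 on D12, 18.0 and 16.8 at D30, then 7.91 and 19.2 on D70. It was 3.37-fold lower on D70 than on D0 (log2 fold change -1.75, standard error 0.60, adjusted p = 0.0486), a call that was lost without either D0 control or the first D70 control (adjusted p up to 0.233), with other scaling factors (0.0518) and without the low-count filter (0.124). In the TMG arm, MYCL had 44.3 and 42.2 CPM on D0, 36.7 and 21.7 on D12, 22.8 and 16 at D30, then 15.6 and 57.3 on D70. The second D70 library was the highest of the 16, and D70 differed from D0 by -0.25 on the log2 scale (0.58, adjusted p = 0.779). MAX (ENSG00000125952, chr14:65472892-65569413, minus strand) kept the narrowest range, 33.1 to 48.9 CPM, 1.48-fold over all 16 libraries. None of its 12 differences between stages was called. FNTB, on the opposite strand, shares 822 exon bases with MAX and had 5131 counts against 9215, and reads from the shared bases cannot be told apart.

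Of the 9 other genes of the MAX network that were listed, 6 are repressors (MXD1, MXI1, MXD3, MXD4, MNT and MGA). From D0 to D12 in control cells, where 6.97% of all genes were higher and 9.71% lower, MXD1 (log2 fold change 1.64, adjusted p = 0.0238), MNT (0.76, 0.0333) and MXI1 (0.73, 0.0206) rose, and MLXIPL, a glucose-responsive activator that pairs with MLX, fell (-2.64, 0.0464). By D70, 3 of 9 were higher and none lower, where 15.0% of all genes were higher and 14.7% lower: MXI1 (1.81, adjusted p = 0.000153), MXD1 (1.79, 0.0096) and MXD4 (0.96, 0.0471). In TMG-treated cells 4 of 9 were higher on D70 than on D0, where 14.9% of all genes were, MXD1 (2.35), MXD4 (1.49), MXI1 (1.08) and MNT (0.71), with adjusted p-values between 0.0017 and 0.029. On D30, MXD1, MNT and MXI1 were higher than on D0 in both arms and MXD4 in the TMG arm, where 14.0% (control) and 13.4% (TMG) of all genes were higher. MXI1 was higher on D30 and D70 than on D12 in control cells (0.82 and 1.08), steps in which 3.60% and 11.1% of all genes were called. On D12 in the TMG arm, MXD1, MNT, MXI1 and MXD4 were higher and MLXIPL lower, against 7.24% and 9.19% of all genes. The median change of the 9 from D0 to D70 was 0.12 in each arm, with 0.03 (control) and 0.01 (TMG) over all genes.

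The 30 MYC target genes, which MYC is known to bind and activate, were listed from general knowledge with earlier results of these data known. On D12, 25 of them were lower than on D0 in control cells and none was higher, where 9.71% of all genes were lower. Their median log2 fold change was -1.41 against 0.00 over all genes. The 3 that fell most were TERT, the telomerase subunit (-4.62), SRM, spermidine synthase (-2.22), and BOP1, a ribosome assembly factor (-2.20), with adjusted p-values of 0.000616, 0.0074 and 0.0277. The 3 at the other end did not pass the test: ODC1 had 0.79, LDHA -0.18 and CDK4 -0.50. On D70 26 were lower and 2 higher in control cells (median -1.48), where 14.7% of all genes were lower, and 25 lower and none higher in TMG-treated cells (-1.42), where 14.1% were lower. Their summed level was 5738 to 6954 CPM on D0 and 2212 to 3393 later. Proliferation markers fell too: in control cells on D12, 0 of 8 had a higher mean (median -1.17), with 1 called lower. On D70 all 8 were called lower in both arms (medians -3.06 in control and -2.70 in TMG-treated cells). The part of proliferation in the values of the MYC targets was not tested.

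Of the 6 KLF members, KLF5 and KLF12 were called higher than on D0 in control cells, and KLF5, KLF6, KLF7 and KLF12 with TMG. KLF5 (ENSG00000102554, chr13:73629114-73651679, plus strand of GRCh37) had 2.60 and 9.44 CPM in the D0 controls, 6.73 and 6.35 on D12, 7.52 and 7.58 at D30, then 23.8 and 65.4 on D70. Both D70 libraries lay above all earlier ones. KLF5 rose 7.42-fold from D0 to D70 (log2 fold change 2.89, standard error 0.82, adjusted p = 0.0227), which did not pass without the first D0 control (adjusted p = 0.139), without the second D70 control (1.99, 0.115) or without the low-count filter (0.0749). In TMG-treated cells it had 3.36 and 3.19 CPM on D0, 19.7 and 9.26 on D12, 18.5 and 7.95 at D30, then 53.0 and 237 on D70. The rise from D0 to D70 was 44.1-fold (5.46, 0.92, adjusted p = 0.00189) and held with each library left out, at 4.01 to 6.17. That from D12 to D70 (3.32, 0.82, adjusted p = 0.0436) was lost without either D12 library, without the second D70 library (1.87, 0.17) and without the filter (0.122).

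KLF12 (ENSG00000118922, chr13:74260226-74708541, minus strand) had 36.6 and 47.4 CPM in the D0 controls, 44.3 and 29.9 on D12, 63.3 and 61.5 at D30, then 85.1 and 101 on D70. The groups of D30 and D70 lay apart from each other and above the earlier ones. It rose 2.21-fold from D0 to D70 (log2 fold change 1.15, standard error 0.26, adjusted p = 0.00852) and 2.50-fold from D12 to D70 (1.32, 0.26, adjusted p = 0.0125). These calls were lost without the first D0 control (0.0745) and without the second D12 control (0.0924). In the TMG arm it had 42.7 and 41.6 CPM on D0, 43.5 and 57.9 on D12, 67.0 and 107 at D30, then 93.5 and 90.7 on D70. The D30 and D70 libraries lay above those of D0, by 2.06-fold (1.04, adjusted p = 0.014) and 2.18-fold (1.13, adjusted p = 0.00935). Both calls were lost without either D0 library, and that of D30 also without the second D30 library (0.67, 0.106).

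KLF7 (ENSG00000118263, chr2:207938861-208038580, minus strand) had 26.7 and 41.1 CPM in the D0 controls, 22.9 and 18.5 on D12, 29.2 and 31.6 at D30, then 41.1 and 57.7 on D70. It rose 2.39-fold from D12 to D70 (log2 fold change 1.26, standard error 0.27, adjusted p = 0.0166), a call lost without either D12 control or the second D70 control (adjusted p up to 0.111). In TMG-treated cells it went from 28.7 and 26.3 CPM on D0 through 27.4 and 33.2 on D12 and 36.1 and 54.5 on D30 to 50.4 and 54.4 on D70. The rise from D0 to D70 was 1.91-fold (0.93, 0.27, adjusted p = 0.0248), lost without either D0 library or the second D70 library (up to 0.139).

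KLF6 (ENSG00000067082, chr10:3818188-3827473, minus strand of GRCh37) had 28.9 and 46.2 CPM in the D0 controls, 36.9 and 41.2 on D12, 53.3 and 47.5 at D30, then 33.8 and 65.3 on D70, and no difference between its control stages was called. In the TMG arm it had 30.4 and 29.1 CPM on D0, 59.1 and 59.6 on D12, 52.8 and 111 at D30, then 46.1 and 135 on D70. All 6 later libraries lay above both of D0. It rose 2.76-fold to D30 (log2 fold change 1.47, standard error 0.50, adjusted p = 0.0494) and 3.04-fold to D70 (1.61, 0.50, adjusted p = 0.0344). Without the second library of D30 and of D70 these were 0.83 (adjusted p = 0.304) and 0.63 (0.319), and both calls were also lost without either D0 library and without the low-count filter (0.106 and 0.0736), that of D30 also with other scaling factors (0.0503).

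KLF4 (ENSG00000136826, chr9:110247133-110252763, minus strand) had 6.74 and 42.8 CPM in the D0 controls, 8.65 and 7.45 on D12, 4.51 and 7.83 at D30, then 7.91 and 20.5 on D70. In the TMG arm it had 10.9 and 11.6 on D0, 10.6 and 5.47 on D12, 6.31 and 23.5 at D30, then 6.56 and 44.4 on D70. Its levels ran from 4.51 to 44.4 CPM, the lowest on D30 and the highest on D70, and none of the 12 stage differences was called. KLF2 (ENSG00000127528, chr19:16435637-16439496, plus strand) was barely measured early, with 3 to 12 counts in each library of D0 and D12, or 0.185 to 0.839 CPM. On D30 its counts were 1 and 28 in the controls and 10 and 71 with TMG, and on D70 they were 20 and 134 in the controls and 17 and 112 with TMG. No KLF2 difference between stages was called by edgeR, the lowest adjusted p being 0.0684 for TMG-treated D70 against D0. Since its late libraries brought KLF2 through the filter, nothing is read from its tests between late and early stages. Processed copies of KLF2 and KLF4 had counts of their own, up to 99 for KLF2P1 and 40 for KLF4P1, so reads may have been split between them.

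In all, in TMG-treated cells 2 of 10 members were called from D0 to D12, both lower, against 16.4% of all genes (9.19% lower, 7.24% higher). On D30 3 were called, 1 lower and 2 higher, against 27.7% (14.4% lower, 13.4% higher), and on D70 5, 1 lower and 4 higher, against 29.0% (14.1% lower, 14.9% higher). From D12 to D70 2 were called in control cells, both higher, against 11.1% of all genes (6.44% higher, 4.66% lower), and 1 in TMG-treated cells, KLF5, higher, against 5.15% (3.01% higher, 2.14% lower). Of these 22 calls, 5 held with each library left out in turn, the 4 of MYCN on D30 and D70 and that of KLF5 on D70 with TMG. DESeq2 made the same 22 calls and called more of all genes. KLF2 is left out of its counts here, since its tests between late and early stages are not read. In control cells DESeq2 added none of the other members for D70 against D0 (35.1% of all genes called) and KLF5 for D70 against D12 (18.7%). In TMG-treated cells it added KLF5 for D12 against D0 (22.4%), KLF5 and KLF7 for D30 against D0 (32.6%), none for D70 against D0 (34.0%) and MYC, KLF7 and KLF12 for D70 against D12 (12.6%).

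No member was called between D12 and D30 or between D30 and D70. In control cells edgeR called 3.60% and 0.384% of all genes in these steps, and 2 and 4 members had an unadjusted p under 0.05, where 20.4% and 18.4% of all genes did. DESeq2 called MYCN for the first step (10.3% of all genes) and MYCN and KLF5 for the second (7.08%). In TMG-treated cells 0.511% and 0.00825% of all genes were called, with 2 and 1 members at an unadjusted p under 0.05, against 15.0% and 11.0% of all genes. DESeq2 called none for the first and KLF5 for the second (1.53%).

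**Figure D2:**
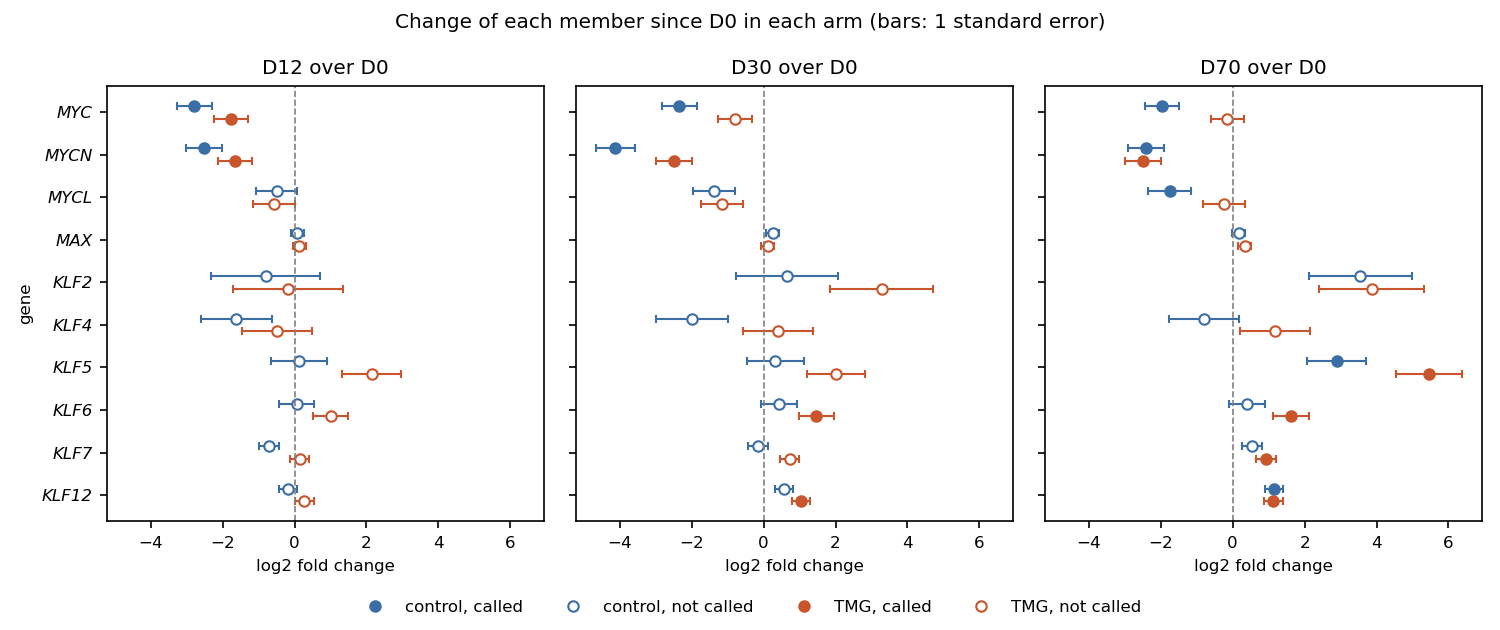
Log2 fold change of each gene from D0 to D12, D30 and D70 in control (blue) and TMG-treated (red) cells, with bars of 1 standard error and filled points for differences called by edgeR at a false discovery rate of 5%. MYCN lay below 0 in all 6 comparisons, between -4.12 and -1.65, and KLF5 reached 5.46 on D70 with TMG.

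Among the other KLF genes, 9 of the 11 listed passed the filter, KLF1 through its D0 libraries alone, so nothing is read from its tests against D0. Of the other 8, 4 were called on D70 against D0 in control cells, where 29.8% of all genes were. KLF9 (log2 fold change 2.72, adjusted p = 0.00318) and KLF10 (1.38, 0.00525) rose, and KLF15 (-2.27, 0.0109) and KLF16 (-0.80, 0.0399) fell. In TMG-treated cells the same 4 were called with KLF8 (1.16, adjusted p = 0.0259) in addition, where 29.0% of all genes were: KLF9 had 3.67, KLF10 1.38, KLF15 -2.64 and KLF16 -1.16. KLF1, the erythroid factor, was low, with a mean of 1.80 CPM in control cells on D0 and 0.0724 on D70. KLF11 was higher on D12 than on D0 in both arms (0.96 in control cells, adjusted p = 0.0474, and 0.95 with TMG, 0.0499), where KLF16 was lower. Of all genes, 6.97% were higher and 9.71% lower in control cells, and 7.24% and 9.19% with TMG. On D30 KLF9 and KLF10 were higher and KLF15 and KLF16 lower than on D0 in both arms. KLF11 was higher there in control cells and KLF8 with TMG. Of all genes, 14.0% were higher and 16.7% lower in control cells, and 13.4% and 14.4% with TMG. KLF9 and KLF10 were also higher on D70 than on D12, by 2.23 and 1.27 in control cells and by 2.15 and 1.19 with TMG. In these steps 6.44% (control) and 3.01% (TMG) of all genes were higher. From D0 to D70 KLF3, KLF11 and KLF13 were not called in either arm. They had 0.43, 0.70 and 0.17 in control cells and 0.85, 0.32 and 0.26 with TMG. KLF8 had 0.43 in control cells and was not called there.

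The second question was whether TMG changed these genes at a given stage. No member was called at any stage by edgeR, where 0% of all 24249 genes were called on D0, D12, D30 and D70 alike. Without the first TMG library of the stage, edgeR called 217 genes on D30 and 801 on D70, and no member among them. At an unadjusted p under 0.05 there were 0 members on D0 (1.26% of all genes), 0 on D12 (2.48%), 1 on D30, MYCN (12%), and 3 on D70, MYC, MYCL and KLF5 (5.49%). DESeq2 on the same libraries called MYCN on D30 and no other member, with 2.46% of all genes called at that stage. The median log2 fold change of the 10 members came to -0.32 (D0), 0.45 (D12), 0.76 (D30) and 0.52 (D70), while that of all genes lay between -0.01 and 0.01. Higher means with TMG were seen for 3, 8, 9 and 7 of the 10. Since the members were chosen with earlier results of these data known, these medians and counts describe the list and do not test it. The same holds for the averages over stages below.

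**Figure D3:**
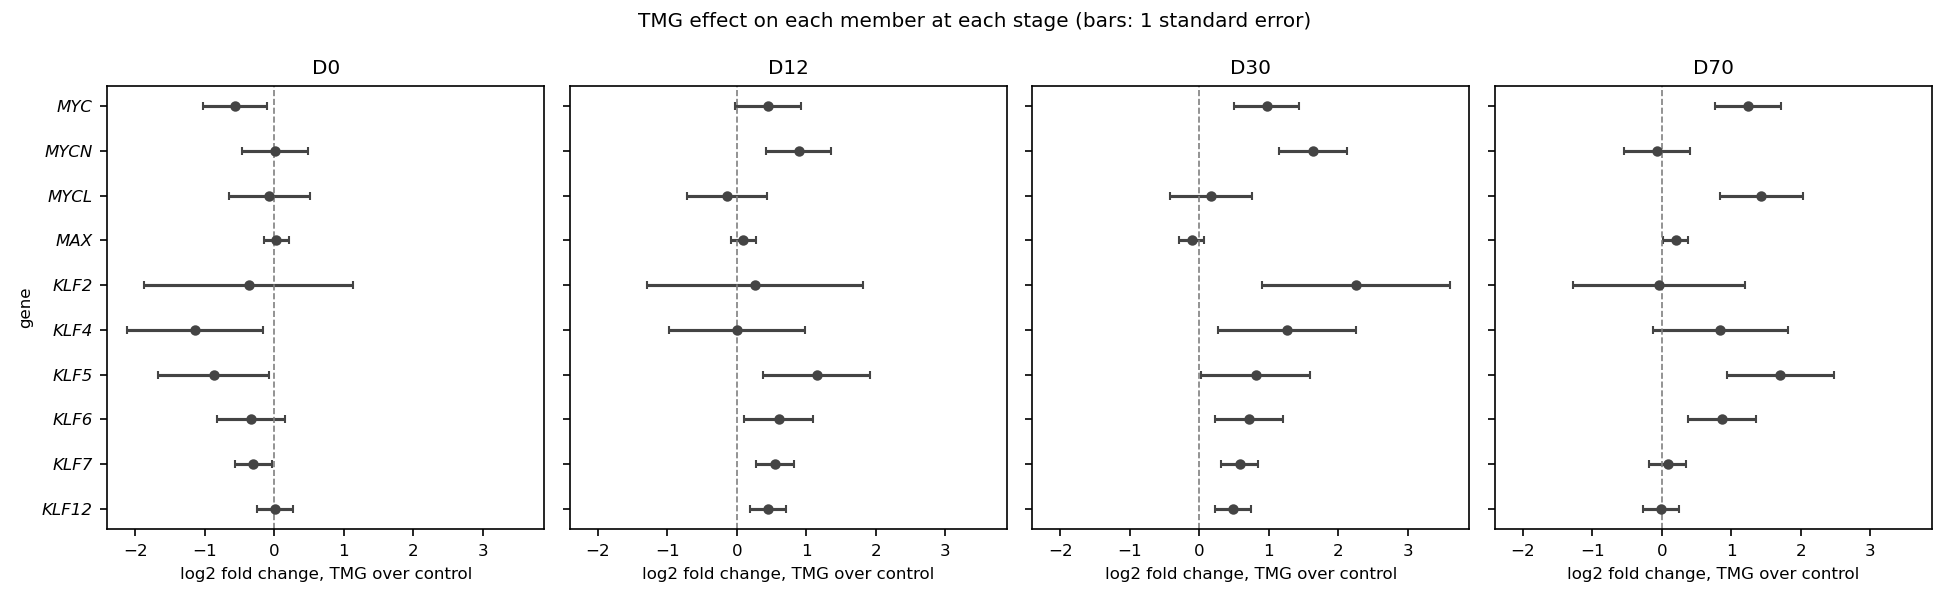
Log2 fold change of TMG-treated over control cells for each gene on D0, D12, D30 and D70, as points with bars of 1 standard error from the edgeR fit. Most points lay left of 0 on D0 and right of 0 later, from -1.14 (KLF4, D0) to 2.25 (KLF2, D30), and no difference was called.

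On D0, MYC was the member whose TMG libraries, 34.0 and 35.3 CPM, lay below both controls, 41.3 and 61.2, as 16.9% of all genes did (and 19.7% lay above). Its log2 fold change was -0.57 (standard error 0.46, adjusted p = 1.0 by edgeR), and -0.26 without the second control. For KLF4, KLF5 and KLF6 both TMG libraries lay between the 2 controls, of which the second was the higher. For KLF7 the TMG libraries had 28.7 and 26.3 CPM and the controls 26.7 and 41.1. KLF4 had -1.14 (0.98) and, without that control library, 0.74, and KLF5 went from -0.87 (0.80) to 0.34. KLF6 and KLF7, at -0.34 and -0.30, came to 0.04 each.

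The same D0 control library was high in immediate early genes, which cells switch on within minutes of a stimulus. The sum of 15 of them was 375 CPM in the first control, 1203 in the second and 467 and 470.1 in the TMG libraries. With TMG 1 of the 15 had a higher mean, and the list had a median log2 fold change of -0.96, from EGR3 (-1.57), EGR1 (-1.33) and JUN (-1.33) to ATF3 (-0.38), IER2 (-0.28) and NR4A1 (0.02). None of the 15 was called (adjusted p = 1.0 for those named). Their part in the D0 values of KLF4, KLF5, KLF6, KLF7 and MYC was not tested.

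On D12, 6 of the 10 members had both TMG libraries above both controls, where 17.8% of all genes did and 16.5% lay below. These were MYC, MYCN, MAX, KLF5, KLF6 and KLF7. KLF6 had 36.9 and 41.2 CPM in control and 59.1 and 59.6 in TMG-treated cells (log2 fold change 0.60, standard error 0.49, adjusted p = 1.0 by edgeR). KLF7 had 22.9 and 18.5 against 27.4 and 33.2 CPM (0.55, 0.27, adjusted p = 1.0). For MYCN, 20.9 and 49.5 CPM with TMG stood against 19.4 and 18.6 (0.89, 0.47), and without the second TMG library the difference was 0.14. KLF5 had 1.15 (0.77), and 0.50 without the first TMG library, in which the sum of 8 epithelial markers was 1632 CPM, against 909 in the second and 581 and 707 in the controls. The epithelial sum was also 822 to 874 CPM in the undifferentiated D0 libraries, so it does not mark 1 cell type alone. The part of cells with these markers in KLF5 was not tested.

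On D30, 4 members had both TMG libraries above both controls (23.1% of all genes did, and 21.0% lay below): MYCN, KLF5, KLF7 and KLF12. MYCN had 19.4 and 19.9 CPM with TMG against 4.04 and 8.38, a 3.12-fold difference (log2 fold change 1.64, standard error 0.49, adjusted p = 0.256 by edgeR), and was between 1.23 and 2.28 with 1 library left out. DESeq2 called it on all 16 libraries (adjusted p = 0.0391) and on the 4 of D30 alone (0.0249, where 2.05% of all genes were called). Of the stem cell markers, 3 named after their values were seen also lay higher in both TMG libraries of D30: POU5F1 had 9.13 and 5.49 CPM against 0.094 and 0.401, TDGF1 4.76 and 1.23 against 0.094 and 0.251, and NANOG 1.07 and 1.23 against 0.188 and 0.151. These control values lie near the floor, since 0.094 CPM was 1 count in the first D30 control. Of the 8 stem cell markers 7 had a higher mean (median log2 fold change 1.04), and their sum, at 109 and 50.4 CPM with TMG and 68.3 and 42.7 without, overlapped between the arms. All 8 proliferation markers had a higher mean (0.71). The part of such cells in the MYCN values was not tested. KLF7 had 36.1 and 54.5 against 29.2 and 31.6 CPM (0.58, 0.27, adjusted p = 0.425) and KLF12 67.0 and 107 against 63.3 and 61.5 (0.48, 0.26, adjusted p = 0.493). The log2 fold change of KLF5 was 0.81 (standard error 0.78), and 0.07 without the first TMG library. MYC had 8.65 and 31.0 CPM with TMG and 8.46 and 11.7 without (0.97, 0.47, adjusted p = 0.445), and -0.22 without the second TMG library.

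That second TMG library of D30 was also the highest of its stage for KLF2 (6.72 CPM), KLF4 (23.5), KLF6 (111), KLF7 (54.5) and KLF12 (107). Its summed level of 8 mesenchymal markers was 29780 CPM, against 4599 to 5828 in the other 3 D30 libraries, and that of 7 endothelial markers was 126, against 24.0 to 34.2. The endothelial sum was 142 to 207 CPM in the undifferentiated D0 libraries, so it does not mark endothelial cells alone. Without the second TMG library of D30 the TMG difference was 0.27 for KLF2, 0.02 for KLF4, 0.07 for KLF6, 0.25 for KLF7 and 0.10 for KLF12. The part of such cells in these values was not tested.

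On D70, MYC was the member with both TMG libraries, 23.9 and 38.3 CPM, above both controls, 13.1 and 13.4, as 9.77% of all genes were (12.4% lay below). The difference was 2.35-fold (log2 fold change 1.24, standard error 0.47, adjusted p = 0.892 by edgeR) and lay between 0.86 and 1.54 with 1 library left out. MYCL had 15.6 and 57.3 against 7.91 and 19.2 CPM (1.43, 0.60, adjusted p = 0.894), and KLF5 53.0 and 237 against 23.8 and 65.4 (1.70, 0.77, adjusted p = 0.902). Without the second TMG library these came to 0.21 and 0.25. KLF6 had 0.87 (0.49) and KLF4 0.84 (0.97), which turned to -0.10 and -1.11 without that library. MYCN had 28.4 and 10.7 CPM with TMG against 18.5 and 22.9 (-0.07, 0.48), with 0.46 without the second TMG library.

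On D70 the second replicate of each arm was the higher for every member but MYCN and KLF12, though the MYC controls stood at 13.1 and 13.4 CPM. The mesenchymal sum split the libraries the same way, with 7754 and 45248 CPM in the controls and 3996 and 59127 with TMG. The epithelial sum was 415 and 915 CPM in the controls and 549 and 3944 with TMG, and each of the 8 markers of either kind was above 0 in all 4 libraries. KLF5 followed the epithelial order on D70, with 23.8 and 65.4 CPM in the controls and 53.0 and 237 with TMG. It did not follow it over the stages, since on D0 the epithelial sum was 822 to 874 CPM and KLF5 2.60 to 9.44. The endothelial sum did not split by replicate, with 91.9 and 94.6 CPM in the controls and 55.9 and 37.1 with TMG. The part of such cells in the levels of the members was not tested.

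**Figure D4:**
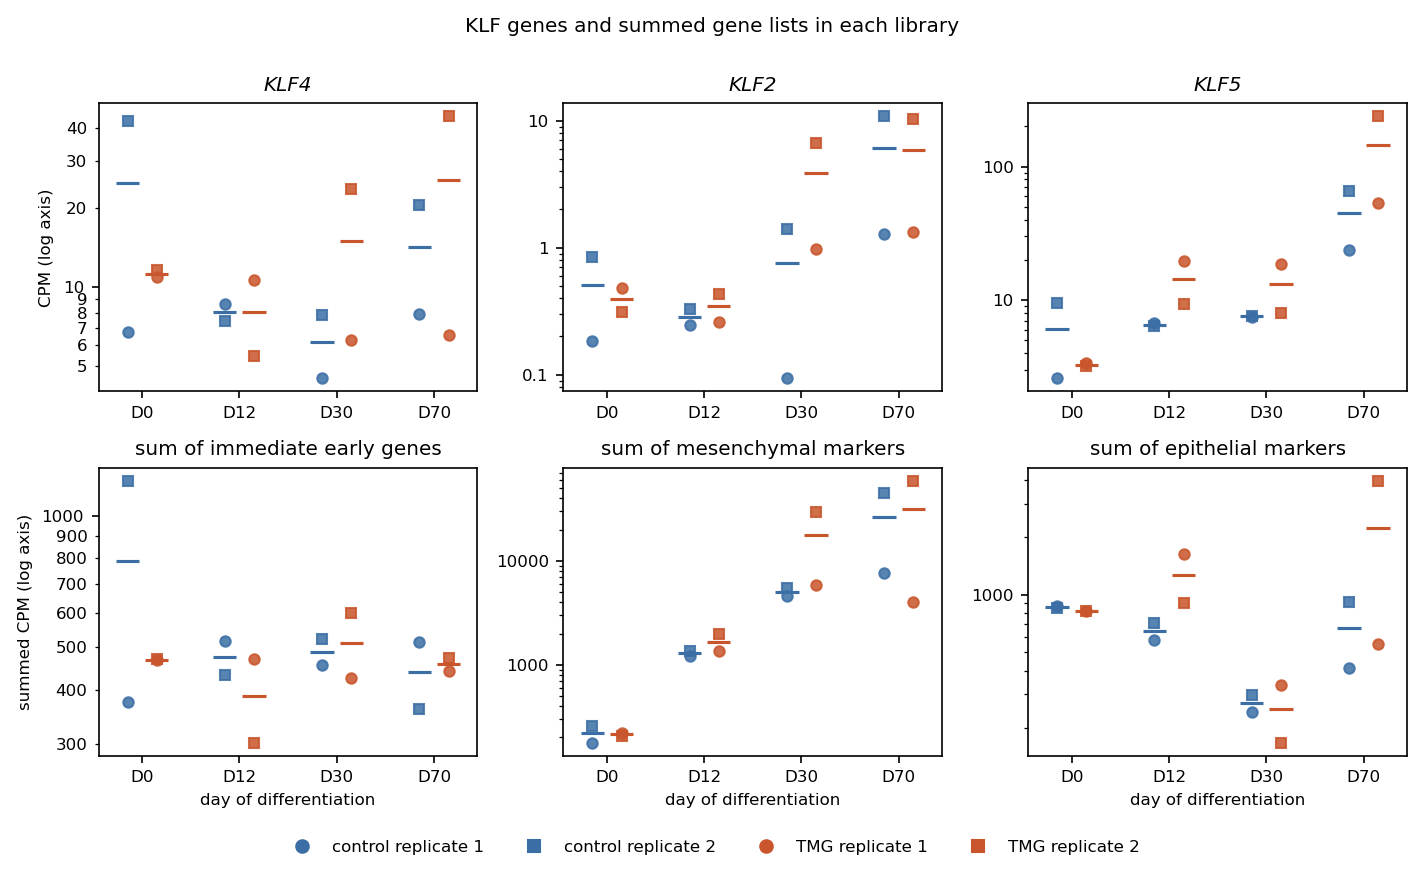
Upper row, level of KLF4, KLF2 and KLF5 in every library in CPM, and lower row, summed CPM of 15 immediate early genes, 8 mesenchymal markers and 8 epithelial markers, all on log axes, by stage, arm and replicate, with short lines for the mean of 2. The second D0 control stood out for KLF4 (42.8 CPM) and the immediate early sum (1203 CPM), and the second D70 TMG library for KLF5 (237 CPM) and the epithelial sum (3944 CPM).

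Averaged over D30 and D70, the median log2 fold change of the 10 members with TMG was 0.79 against 0.00 over all genes, and the members other than MAX had a higher mean. The study had already reported MYC, MYCN, MYCL, KLF2 and KLF4 as higher with TMG at these stages, from the same data. The median therefore describes the list and is no test of it. The means of cell type markers also differed over these stages, with none of the markers called: 8 of 8 epithelial (median 1.01), 7 of 8 mesenchymal (1.33), 6 of 8 stem cell (0.87) and 0 of 7 neural progenitor markers (-1.08) had a higher mean. On D12, D30 and D70 taken singly it was also 0 of 7 neural progenitor markers, with medians of -0.49, -0.67 and -1.11. Of the neuron markers, 6 of 8 had a higher mean over D30 and D70 (median 0.29). It was 6 of 8 on D30 (0.73) and 2 of 8 on D70 (-0.21). Their part in the members' values was not tested. MYC had 1.10 (standard error 0.33, adjusted p = 0.218 by edgeR), KLF5 1.25 (0.55, 0.344), MYCN 0.78 (0.34, 0.344) and KLF6 0.79 (0.35, 0.351). None was called, as none of all genes (0%) was, and these 4 had an unadjusted p under 0.05, where 13.7% of all genes did. MYC was called by DESeq2 (adjusted p = 0.0485, with 2.76% of all genes called) and by edgeR without the first TMG library of D30 (1.43, adjusted p = 0.0313, with 0.829% of all genes called). Without the second TMG library of D30 its value was 0.51 (adjusted p = 0.619). Without the second TMG library of D70, KLF5 came to 0.53 and KLF6 to 0.30, and KLF6 to 0.47 without that of D30. MYCN came to 0.35 without the first TMG library of D70. MAX, at 0.04, turned to between -0.06 and -0.01 without 1 of 3 libraries, so its direction is not given.

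Averaged over all 4 stages the median of the 10 was 0.40, and none was called, while 1 gene in all was (0.00412%). MYC (0.52, standard error 0.23, adjusted p = 0.414 by edgeR) and MYCN (0.62, 0.24, adjusted p = 0.347) had an unadjusted p under 0.05, as 11.8% of all genes did. DESeq2 called no member. Whether the effect of TMG differed between consecutive stages was tested as an interaction, and no member and 0% of all genes were called by edgeR, nor any member by DESeq2. At an unadjusted p under 0.05 stood KLF7 between D0 and D12 (0.85, 0.38) and MYCN between D30 and D70 (-1.72, 0.68), and no member between D12 and D30, where 1.07%, 4.03% and 3.41% of all genes did.

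No gene of the MAX network, of the other KLF genes or of the MYC targets was called by edgeR for TMG at any stage or in the averages. The MYC targets had a median log2 fold change of 0.11 over D30 and D70, with 20 of 30 means higher, and the MAX network partners -0.12, with 4 of 9 higher. The 9 other KLF genes had 0.07, with 6 higher means. The 8 proliferation markers all had higher means with TMG over these stages, with a median of 0.58, and their summed level on D70 was 288 and 131 CPM in the controls and 415 and 170.1 with TMG.

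The genes whose log2 CPM followed each member most closely over the 16 libraries were ranked by Pearson's r, a description only, since libraries of a stage share their stage and, in part, their cell makeup. MYC went with LSM1 (0.938), SNHG8 (0.927) and RPS9 (0.924), and MYCN with TMEM132B (0.958), MAT2A (0.957) and NETO1 (0.957). KLF2 went with ISLR (0.971), LGALS1 (0.96) and COL16A1 (0.945), the last of which encodes a collagen. KLF4 went with TSPAN5-DT (0.876), SOX18 (0.875), an endothelial factor, and CEBPB (0.875), and KLF5 with PSD4 (0.951), BARX2 (0.945) and SERPINB8 (0.945). KLF6 went with FRMD6 (0.943), GAB1 (0.936) and ANKRD50 (0.928). For MYCL these were SMG1 (0.935) and DDI2 (0.913), for MAX LURAP1L (0.879), TRAPPC6B (0.873) and TATDN2P3 (0.872), for KLF7 MBNL1-AS1 (0.948), DUSP5P1 (0.933) and KLF12 (0.913), and for KLF12 UBE2Q2P16 (0.949), LRRC4C (0.949) and RBMS3 (0.948).

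Among the members themselves, KLF7 and KLF12 were the closest pair (0.91), then KLF2 and KLF7 (0.86) and MAX and KLF6 (0.81). MYC and MYCN had 0.63, and MYCN and MAX -0.55. These values also come from the 16 libraries and mix differences between stages with those between replicates.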

How the data were processed

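RNA was sequenced on an Illumina NextSeq 500 in 16 libraries, 2 for each of 4 stages and 2 arms. Per the labels and the study's methods, the authors aligned reads with Bowtie2 to hg19 and estimated gene levels with RSEM 1.2.12. The deposited values are expected counts per gene, here whole numbers, and how they were rounded is not given in the sources used here. Library totals were 10334908 to 19836878, and low counts such as those of KLF2 carry the largest counting error.

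Counts were fitted over all 16 libraries with edgeR 4.0.16 (R 4.3.3) by its quasi-likelihood test, with 1 mean for each group, TMM scaling, filterByExpr (minimum count 10, minimum total 15) and 8 residual degrees of freedom. Calls were made at 5% after Benjamini-Hochberg adjustment over 24249 genes. CPM values use the TMM factors. The script was tested on simulated data. DESeq2 1.42.0, RLE scaling, no filter, a replicate block, fits on the 4 libraries of a stage and leaving out each library were tried as alternatives. The replicates are described as biological, and p-values measure the spread between these samples.

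Exon lengths and gene positions came from GENCODE v44lift37. Named genes were all 10 members, the genes called in the MAX network and other KLF lists, the 3 highest and 3 lowest of the MYC target and immediate early lists, and the 3 genes most like each member, of which 1 is not reported here. The members and the 12 gene lists were chosen with earlier results of these data known.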

Additional observations from a re-analysis of the deposited data

Results flagged for a closer look

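MYC was flagged because its libraries moved in opposite directions with TMG at different stages, without overlap between the arms on D0, D12 and D70. On D0 both TMG libraries lay below both controls, with a log2 fold change of -0.57, and of -0.26 without the second control, the library that was high in immediate early genes. On D12 both lay above, with 0.45, and on D70 both lay above again, with 1.24. Of all genes, 16.9% lay below in this way on D0, and 17.8% and 9.77% above on D12 and D70. On D30 the arms overlapped, with 8.65 and 31.0 CPM in TMG-treated and 8.46 and 11.7 in control cells. The D30 difference was 0.97, and -0.22 without the second TMG library. The difference between D12 and D0 was 1.02 (standard error 0.66, adjusted p = 1.0 by edgeR) and did not pass the test. The difference between D70 and D0 was not tested. The change of direction was not particular to MYC. KLF5, KLF6 and KLF7 also had lower means with TMG on D0 (-0.87, -0.34 and -0.30) and higher ones on D12 (1.15, 0.60 and 0.55).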

How the results depend on the processing

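Of 896 values of members under an alternative, which cover the TMG differences and those stage differences that were called, 801 kept their direction and side of the threshold, 40 turned direction, 51 lost a call and 4 gained one. Calls gained in other stage differences are not among these. The cause was not tested. With other scaling factors and with DESeq2, KLF4 on D12 was 0.01 and KLF12 on D70 0.02 with TMG, and on the 4 libraries of a stage KLF12 was -0.01 on D0 and 0.01 on D70 by both tools.

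With 1 library left out in turn, these TMG differences turned direction. The range on D30 was for MYC -0.22 to 1.62, MYCL -0.12 to 0.39. The range on D0 was for MYCN -0.10 to 0.13, MYCL -0.32 to 0.23, MAX -0.01 to 0.08, KLF2 -1.09 to 1.04, KLF4 -1.93 to 0.74, KLF5 -1.52 to 0.34, KLF6 -0.63 to 0.04, KLF7 -0.58 to 0.04, KLF12 -0.17 to 0.20. The range on D70 was for MYCN -0.94 to 0.46, MAX -0.01 to 0.46, KLF2 -2.15 to 2.21, KLF4 -1.11 to 1.73, KLF6 -0.10 to 1.45, KLF7 -0.14 to 0.37, KLF12 -0.13 to 0.14. The range on D12 was for MYCL -0.56 to 0.44, KLF2 -0.14 to 0.59, KLF4 -0.56 to 0.40. The range over D30 and D70 was for MAX -0.06 to 0.17. The range over all stages was for KLF2 -0.01 to 1.27, KLF4 -0.25 to 0.71.

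DESeq2 called 1 member for TMG on D30 (also on the 4 libraries of that stage), 1 over D30 and D70, and, between stages, 1 for D30 against D12, 4 for D70 against D12 and 2 for D70 against D30 in control cells. In TMG-treated cells it called 6 for D30 against D0, 5 for D70 against D12 and 1 for D70 against D30. The counts of 4, 6 and 5 include KLF2, whose tests between late and early stages are not read. Without the low-count filter 3 were called for control D70 against D0, 1 for TMG D12 against D0 and 0 for TMG D70 against D12, where 5691, 3121 and 1179 of all 43143 genes were.

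With 1 library left out, the lowest and highest counts of members called were 0 to 1 for TMG late, 0 to 2 for control D12 against D0, 1 to 2 for control D30 against D0, 2 to 3 for control D70 against D0, 0 to 2 for control D70 against D12, 0 to 1 for TMG D12 against D0, 1 to 4 for TMG D30 against D0, 2 to 6 (KLF2 included in the 6) for TMG D70 against D0, 0 to 2 for TMG D70 against D12, 0 to 1 for TMG D70 against D30. In the same order, the counts over all 24249 genes were 0 to 755, 1125 to 1890, 3746 to 4572, 3863 to 6286, 390 to 2373, 872 to 1749, 2753 to 4743, 2964 to 6634, 80 to 2907 and 3 to 1639.

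Over all genes, edgeR called 0 for TMG on D0, D12, D30 and D70, 0 over D30 and D70 and 1 over all stages, where DESeq2 called 5, 11, 597, 55, 669 and 514 in the same order. EdgeR without the filter called 1, 0, 21, 3, 61 and 32, and with the replicate block 0, 0, 233, 1, 412 and 66. Without the first TMG library of D30 it called 217 on D30 and 201 over D30 and D70, without the first of D70 801 on D70 and 755 over both, and without the second of D70 3 and 128. Same-numbered replicates deviated together with correlations of 0.045, 0.367, 0.223 and 0.607 on D0, D12, D30 and D70, but the sources tie the numbers to no shared culture or day and each stage has 2 pairs, so they were not taken as a pairing. With the replicate block, MYCL on control D70 against D0 was -1.77 (adjusted p = 0.056 by edgeR) and KLF5 on TMG D70 against D12 was 3.13 (0.0582), and neither was called.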
